A study of Mus musculus with 18 samples.

Results

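Glucose breakdown to pyruvate, and the choice between turning that pyruvate into lactate and passing it to the mitochondrion, was followed through 32 genes out of 35773 in the count tables of mouse pluripotent stem cells. The genes were listed by function and not picked by a measured value, but earlier results of these data were known when they were chosen. They comprised 4 carriers of glucose and lactate, 9 genes for the steps from hexokinase to triose phosphate isomerase, 7 for the steps from GAPDH to pyruvate kinase, 2 for the enzymes that set fructose 2,6-bisphosphate, 2 lactate dehydrogenase subunits, 4 for the entry of pyruvate into the mitochondrial matrix and its oxidation, and 4 pyruvate dehydrogenase kinases. All 32 passed the filter on low counts described with the first test.

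Polyadenylated RNA was sequenced from 6 groups of 3 samples, 18 in all, every one labelled wild type and of strain 129S2/SvPasCrl. ESCs were naive embryonic stem cells kept in 2iL, a medium with inhibitors of MEK and GSK3 and the cytokine LIF. AFSCs were primed cells kept in activin A and FGF2, and EpiSCs were epiblast stem cells, the other primed state. EpiLCs were epiblast-like cells, an early step out of the naive state. ASCs (advanced pluripotent stem cells) were derived from AFSCs, and ESC-ASCs were ASCs converted from ESCs. By the methods of the study, both were kept in ABCL, an N2B27 medium with activin A, BMP4, the GSK3 inhibitor CHIR99021 and LIF. The same methods describe embryos from reporter males of mixed background as the source of the lines, which the strain label does not show, and the labels do not name the line behind each sample. Medium and cell line therefore cannot be told apart in the comparisons below, ESC-ASCs against ESCs included, except in ESC-ASCs against ASCs. Both of those groups were kept in ABCL, and there cell line and origin cannot be told apart. The study describes its clustering of transcriptomes as based on 3 biological replicates, but the labels do not say whether replicates were separate cultures. The p-values therefore measure the spread between these samples. Fewer cells with a transcript and less RNA per cell cannot be told apart in bulk RNA.

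Glycolysis splits glucose into pyruvate in the cytosol. Lactate dehydrogenase can reduce the pyruvate to lactate, which leaves the cell through monocarboxylate carriers, or the mitochondrial pyruvate carrier can pass it to the pyruvate dehydrogenase complex, which makes acetyl-CoA and is switched off by the pyruvate dehydrogenase kinases. Many genes of this pathway are known targets of the hypoxia-inducible factors (HIFs), and primed pluripotent cells are known to rely on glycolysis more than naive cells, which also respire.

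The 4 listed genes with the largest increase from ESCs to ESC-ASCs are shown by the 250 bases before their start, because many glycolytic promoters carry the core of the hypoxia response element. Sequences are from RefSeq (GRCm38.p6), written 5′ to 3′ along the gene, and capitals mark ACGTG or GCGTG on either strand. Pdk1 lies at chr2:71872974-71873223 (plus strand), Pfkfb3 at chr2:11553930-11554179 (minus strand), Slc16a3 at chr11:120948817-120949066 (plus strand) and Pgk1 at chrX:106186850-106187099 (plus strand).
Pdk1: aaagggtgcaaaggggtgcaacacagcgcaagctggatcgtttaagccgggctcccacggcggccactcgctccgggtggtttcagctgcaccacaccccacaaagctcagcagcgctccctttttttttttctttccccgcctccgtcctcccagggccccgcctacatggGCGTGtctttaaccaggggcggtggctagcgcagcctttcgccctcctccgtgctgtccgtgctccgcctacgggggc
Pfkfb3: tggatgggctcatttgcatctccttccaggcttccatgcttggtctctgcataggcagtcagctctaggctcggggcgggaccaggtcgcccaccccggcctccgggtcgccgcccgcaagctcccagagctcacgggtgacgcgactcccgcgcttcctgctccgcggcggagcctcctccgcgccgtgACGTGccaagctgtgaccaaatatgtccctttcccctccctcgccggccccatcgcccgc
Slc16a3: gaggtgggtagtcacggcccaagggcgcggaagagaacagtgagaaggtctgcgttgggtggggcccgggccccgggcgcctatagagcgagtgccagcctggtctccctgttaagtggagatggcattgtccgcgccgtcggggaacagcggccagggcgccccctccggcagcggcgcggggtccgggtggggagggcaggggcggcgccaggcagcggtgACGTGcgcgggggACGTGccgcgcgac
Pgk1: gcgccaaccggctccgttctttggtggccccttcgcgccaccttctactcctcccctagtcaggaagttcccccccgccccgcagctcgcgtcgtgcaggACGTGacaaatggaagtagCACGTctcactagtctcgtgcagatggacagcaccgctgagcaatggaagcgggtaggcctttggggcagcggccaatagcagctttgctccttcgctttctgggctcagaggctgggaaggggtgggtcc
Pdk1 and Pfkfb3 held 1 match each, and Slc16a3 and Pgk1 held 2 each. Promoter entries were found for 31 of the 32 genes, all but Slc2a3, and the entry nearest to the 5′ end of the gene in the count files was taken. Of these 31, 25 (80.6%) held at least 1 match when both 5-base words were searched on both strands and overlapping matches were counted separately. The share was 55.1% of 11848 tested genes with an entry chosen in the same way and 38.6% of all 32851 entries. A match describes letters in a window of 250 bases and says nothing about binding in these cells.

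Levels are read counts divided by the size factor of the sample and by the exonic length in kilobases (normalized read counts per kb), so that genes of different length can be compared. Sample totals ran from 4961934 to 18071600 counts, with 17813619 or more in ESC-ASCs and at most 9906473 elsewhere. Core pluripotency markers were present in every group, naive markers summed to 2819 to 4878 in ESCs, ASCs and ESC-ASCs and to at most 121 in the other groups, and primed markers summed to at most 285 in the former and to at least 1336 in the latter. Markers of feeder fibroblasts summed to 24.0 to 139 and those of primitive endoderm to 9.92 to 71.5. The trophoblast list, which shares Eomes with the primed list, summed to 21.4 to 519, with its highest sums in EpiSCs, and the part of these cell types in the results was not tested. Replicate 1 of ESCs, ASCs, AFSCs and EpiLCs stood apart from the other 2 replicates of its group: a chi-square statistic per gene was 21.5 to 100 in pairs with it and 1.65 to 11.8 in other pairs. Its mitochondrial transcripts took 8.08% of counts in ESCs and 14.4% in AFSCs, against 2.70 to 2.92% and 1.51 to 1.92% in the other replicates. They took 3.48% in ASCs and 4.31% in EpiLCs, against 1.43 to 1.61% and 2.64 to 2.76% in the other replicates. Among the listed genes, replicate 1 had 0.413 of the mean of the other 2 ESC replicates for Pkm and 0.345 of that of the other 2 AFSC replicates for Tpi1, and the counts and medians of the list are given below also without these 4 libraries.

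**Figure D1:**
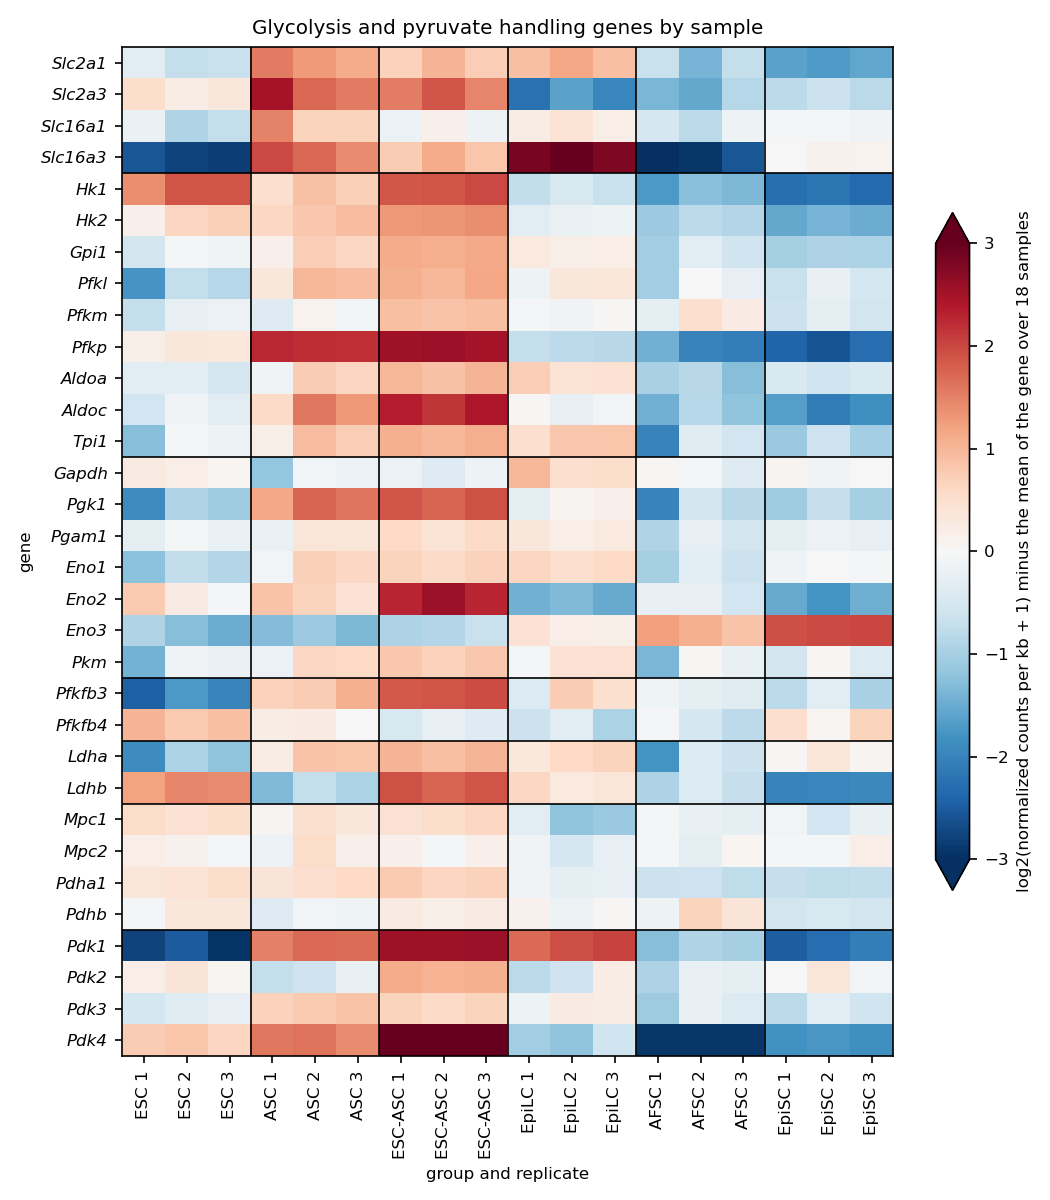
Levels of the 32 genes in the 18 samples, as log2(normalized read counts per kb + 1) minus the mean of the gene over all samples, with genes in rows grouped by role and samples in columns grouped by cell type. ESC-ASCs had the highest mean level for 22 of the 32 genes and EpiSCs the lowest for 13, counts with no background over all genes.

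The listed genes took more of the transcriptome in the cells kept in ABCL and in EpiLCs than in the other groups. Their share of all counts was 2.78 to 3.50% in ASCs, 3.50 to 3.53% in ESC-ASCs and 2.67 to 2.83% in EpiLCs, against 1.51 to 1.91% in ESCs, 1.20 to 1.87% in AFSCs and 1.64 to 1.85% in EpiSCs. The ranges of the former 3 groups lay above all samples of the latter 3. ESC-ASCs had the highest mean level for 22 genes and the lowest for none, ASCs had the highest for 5, and EpiSCs had the lowest for 13. The matching shares over all genes were not computed, so these counts only describe the list. The map of the 32 genes by sample shows most rows above their mean in the ESC-ASC columns.

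Each comparison was tested with the quasi-likelihood test of edgeR over 16901 genes, those with a count of 10 or more in 3 or more samples, and a gene is called where its Benjamini-Hochberg adjusted p is below 0.05. From ESCs to ASCs 24 of the 32 genes were called, 18 higher and 6 lower, where 50.3% of all genes were called, 26.4% higher and 23.9% lower. From ESCs to ESC-ASCs 27 were called, 26 higher and 1 lower, where 60.1% of all genes were called, 30.6% higher and 29.6% lower. From ESCs to EpiLCs 24 were called, 14 higher and 10 lower, where the share of all genes was 55.3%, 28.7% higher and 26.6% lower. The primed cells differed from ESCs at a rate near that of all genes: 18 listed genes were called in AFSCs (5 higher and 13 lower, background 60.5%, 29.7% and 30.8%) and 20 in EpiSCs (7 higher and 13 lower, background 61.2%, 29.2% and 32%). These 5 comparisons share the ESC samples.

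Against the primed cells, the ASCs had nearly all called genes on the high side. ASCs had 23 genes higher and 2 lower than AFSCs, where 64.0% of all genes were called, 32.8% higher and 31.2% lower. They had 23 higher and 2 lower than EpiSCs, with a background of 66.5%, 35.9% and 30.7%. ESC-ASCs had 14 genes higher and 4 lower than ASCs, with a background of 50.7%, 23.0% and 27.7%. The median log2 fold change of the 32 genes was 0.83 in ASCs against ESCs, 1.24 in ESC-ASCs against ESCs, 0.45 in EpiLCs, -0.35 in AFSCs and -0.20 in EpiSCs, beside 0.02, 0.03, 0.06, -0.03 and -0.04 over all genes tested. It was 1.13 in ASCs against AFSCs and 1.23 against EpiSCs, beside 0.02 and 0.07, and 0.36 in ESC-ASCs against ASCs, beside -0.05. Without the 4 libraries that stood apart, 19 genes were higher and 4 lower from ESCs to ASCs, 26 and 2 to ESC-ASCs, 17 and 12 to EpiLCs, 8 and 15 to AFSCs and 8 and 15 to EpiSCs, with 26 and 4 in ASCs against AFSCs, 28 and 1 against EpiSCs and 13 and 4 in ESC-ASCs against ASCs. All genes called, of 16607 tested in that fit, were then 52.9% from ESCs to ASCs, 69% to ESC-ASCs, 62.1% to EpiLCs, 67.1% to AFSCs and 71.9% to EpiSCs, and 65.4%, 72.9% and 59.9% in the last 3 comparisons. The median of the 32 genes against ESCs was then 0.81 for ASCs, 1.11 for ESC-ASCs, 0.29 for EpiLCs, -0.31 for AFSCs and -0.28 for EpiSCs. It was 1.15 in ASCs against AFSCs, 1.36 in ASCs against EpiSCs and 0.17 in ESC-ASCs against ASCs. Without ASC replicate 1 alone the last median was 0.20, and without AFSC replicate 1 alone that of AFSCs against ESCs was -0.22. Of 256 fold changes, 181 were called, and 29 of these lost the call in at least 1 of 27 alternative settings, of which Tpi1 in ASCs against ESCs alone was at least 2-fold. Of the 256, 127 were called and at least 2-fold, and 28 of the 32 genes met that rule in at least 1 comparison. From ESCs to ASCs 14 genes met it upward and 2 downward, where 25.8% of all genes met it, 18.5% upward and 7.26% downward. From ESCs to ESC-ASCs 18 rose and 1 fell by that much, where 36.4% of all genes did, 19.3% upward and 17.1% downward. In EpiLCs 10 rose and 7 fell (34.0% of all genes, 18% and 15.9%), in AFSCs 3 and 8 (39.5%, 19.9% and 19.6%) and in EpiSCs 4 and 10 (41.0%, 19% and 22%). ASCs had 21 genes higher and 1 lower at 2-fold than AFSCs (39.4%, 22.7% and 16.7%) and 18 and 1 than EpiSCs (42.4%, 25.6% and 16.8%), and ESC-ASCs had 8 and 1 than ASCs (24.5%, 8.04% and 16.5%). Fold changes below are log2 values ± SE from the same fit with its adjusted p.

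The carriers move glucose in and lactate out, and all 4 were higher in ASCs than in ESCs and than in AFSCs. Slc16a3 encodes MCT4, the carrier known for lactate export from glycolytic cells. Its level was 20.7, 17.7 and 17.2 in ESCs, 508, 421 and 344 in ASCs, 217, 275 and 228 in ESC-ASCs, 921, 1069 and 894 in EpiLCs, 13.4, 16.1 and 20.6 in AFSCs and 128, 140.4 and 137 in EpiSCs. EpiLC samples were highest, ASCs and ESC-ASCs came next, and all ESC and AFSC samples were at or below 20.7, far from the other groups. The log2 fold change against ESCs was 4.50 ± 0.19 (adjusted p = 3.44e-12) in ASCs, 3.69 ± 0.18 (adjusted p = 9.58e-12) in ESC-ASCs and 5.71 ± 0.20 (adjusted p = 3.84e-14) in EpiLCs, and it was 2.86 ± 0.18 (adjusted p = 6.54e-11) in EpiSCs. ASCs exceeded AFSCs by 4.63 ± 0.19 (adjusted p = 3.15e-13), and AFSCs themselves did not differ from ESCs beyond the spread (-0.12 ± 0.19, adjusted p = 0.594).

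Both glucose transporters rose in the ABCL cells but parted in EpiLCs. Slc2a1 (GLUT1, the widely used basal transporter) had 787, 594 and 617 in ESCs, 2904, 2363 and 2118 in ASCs, 1576, 1974 and 1634 in ESC-ASCs, 1840.3, 2178 and 1842 in EpiLCs, 612, 374 and 592 in AFSCs and 322, 299.6 and 332 in EpiSCs. Every ASC, ESC-ASC and EpiLC sample lay above every sample of the other 3 groups. It was 1.87 ± 0.19 (adjusted p = 1.83e-07) in ASCs and 1.56 ± 0.18 (adjusted p = 6.64e-07) in EpiLCs against ESCs, and 2.20 ± 0.19 (adjusted p = 8.31e-09) in ASCs against AFSCs. Slc2a3 (GLUT3, a high-affinity transporter) had 1484, 1210.4 and 1311 in ESCs, 5894, 3432 and 3071 in ASCs, 2998, 3834 and 2847 in ESC-ASCs, 218, 342 and 267 in EpiLCs, 402, 358 and 575 in AFSCs and 604, 657 and 591 in EpiSCs. Its EpiLC samples were the lowest of all groups, apart from every ESC sample, while ASCs and ESC-ASCs were the highest. The difference from ESCs was -2.26 ± 0.25 (adjusted p = 2.57e-07) in EpiLCs and 1.61 ± 0.24 (adjusted p = 2.50e-05) in ASCs, and ASCs exceeded AFSCs by 3.19 ± 0.26 (adjusted p = 3.75e-09). Replicate 1 of ASCs, at 5894, was 1.81 times the mean of the other 2 ASC replicates. Slc16a1 encodes MCT1, which carries lactate in either direction, and had 195, 118 and 136 in ESCs, 626, 352 and 352 in ASCs, 196, 246 and 201 in ESC-ASCs, 262, 294 and 256 in EpiLCs, 156, 127 and 201 in AFSCs and 219, 216 and 207 in EpiSCs. All ASC samples were above all others, at 1.56 ± 0.22 (adjusted p = 1.28e-05) against ESCs and -1.04 ± 0.21 (adjusted p = 5.63e-04) for ESC-ASCs against ASCs. Without ASC replicate 1 the gene no longer met the 2-fold rule in ESC-ASCs against ASCs. Its smaller difference between ESC-ASCs and ESCs (0.52 ± 0.22, adjusted p = 0.0466) was lost when ESC replicate 2 (adjusted p = 0.195), ESC replicate 3 (0.134), ESC-ASC replicate 2 (0.138) or ESC-ASC replicate 3 (0.0577) was left out of the edgeR fit. The plot of 9 genes by sample shows the same EpiLC samples at the top for Slc16a3 and at the bottom for Slc2a3.

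**Figure D2:**
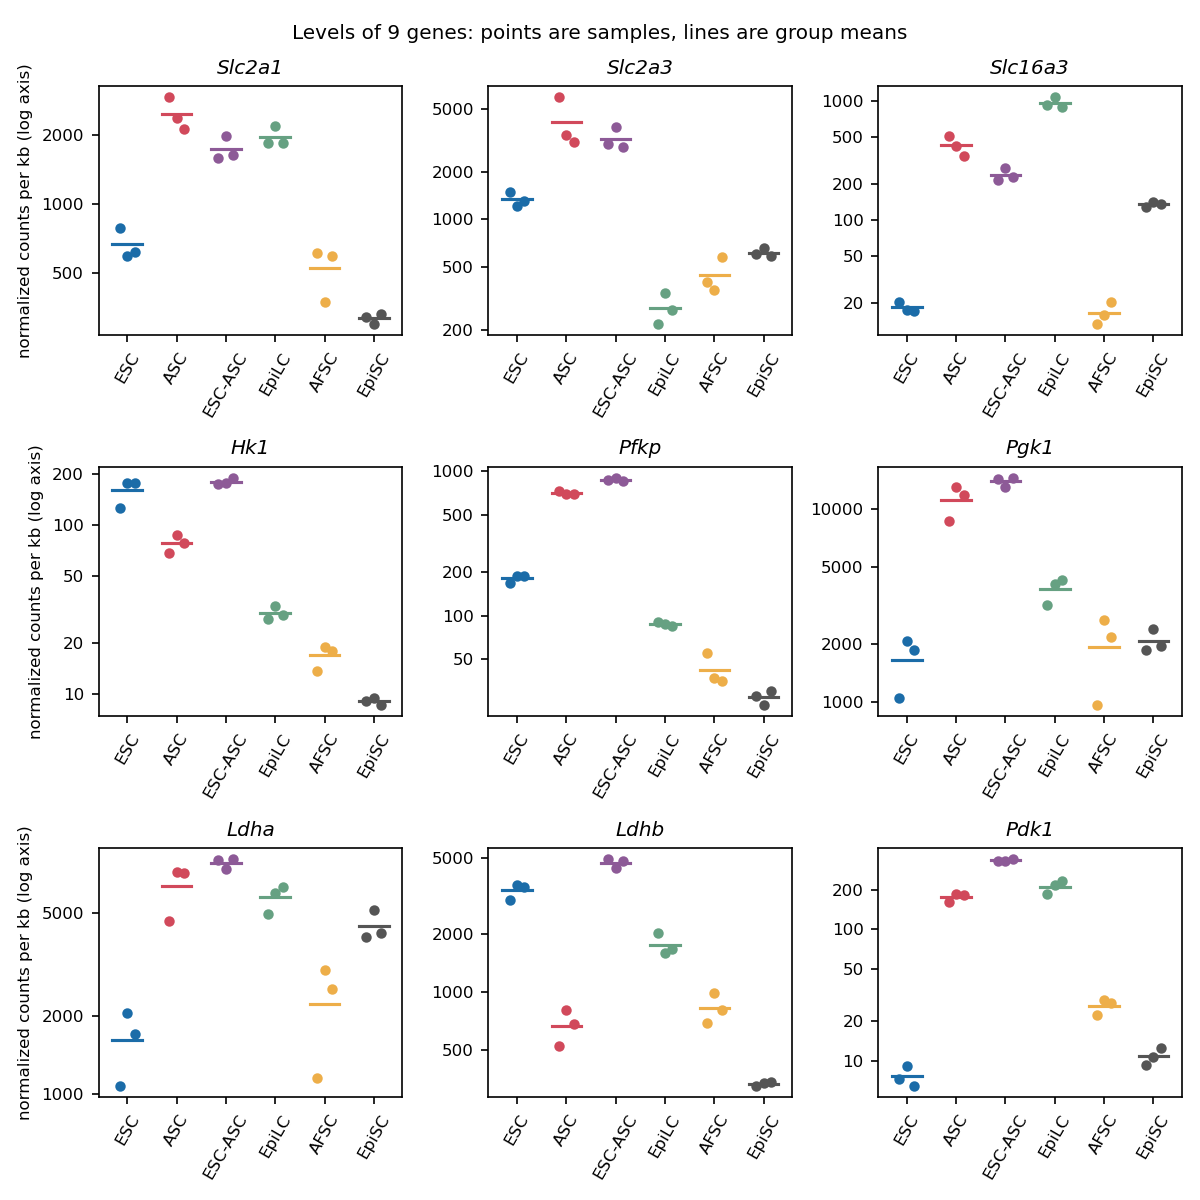
Normalized read counts per kb (log axis) of 9 of the genes in each group, with a point for each of the 3 samples and a line at the group mean. Slc16a3, Pgk1 and Pdk1 sit high in ASCs, ESC-ASCs and EpiLCs, while Hk1 and Pfkp fall from ESCs through EpiLCs and AFSCs to EpiSCs.

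Of the 9 genes of upper glycolysis, 8 were higher in ESC-ASCs than in ESCs, where 30.6% of all genes were. In ASCs against ESCs 6 were higher and 1 lower, where 26.4% and 23.9% of all genes were. In EpiSCs against ESCs 5 were lower and 4 not called, a rate of calls near that of all genes (61.2%, with 32% lower). Hexokinase traps glucose in the cell as glucose 6-phosphate. Hk1, on chromosome 10 (62268855 to 62379908, GRCm38), had 127, 178 and 178 in ESCs, 68.0, 87.4 and 78.8 in ASCs, 175, 177 and 189 in ESC-ASCs, 27.8, 33.4 and 29.2 in EpiLCs, 13.7, 19.1 and 17.97 in AFSCs and 9.07, 9.50 and 8.61 in EpiSCs. ESC-ASC and ESC samples overlapped at the top, and ASCs, EpiLCs, AFSCs and EpiSCs followed below them in that order without overlap. Against ESCs it was -4.16 ± 0.17 (adjusted p = 2.20e-13) in EpiSCs, -3.24 ± 0.17 (adjusted p = 3.73e-12) in AFSCs, -2.41 ± 0.16 (adjusted p = 1.73e-10) in EpiLCs and -1.07 ± 0.15 (adjusted p = 1.02e-05) in ASCs, while the value in ESC-ASCs was 0.15 ± 0.15 (adjusted p = 0.393). Hk2, an isoform that binds mitochondria in fast-growing cells, had 403, 561 and 589 in ESCs, 553, 631 and 686 in ASCs, 887, 899 and 952 in ESC-ASCs, 289, 315 and 322 in EpiLCs, 169, 208 and 196 in AFSCs and 124, 136 and 129 in EpiSCs. ESC-ASC samples were highest, ASC and ESC samples overlapped below them, and EpiLC, AFSC and EpiSC samples followed without overlap. EpiSCs differed from ESCs by -2.01 ± 0.15 (adjusted p = 7.96e-10) and ASCs from AFSCs by 1.68 ± 0.15 (adjusted p = 1.36e-08).

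Phosphofructokinase commits sugar to glycolysis, and its platelet-type gene had a lower level in the primed cells than in any other group. Pfkp had 169.8, 189 and 189 in ESCs, 726, 700.3 and 692 in ASCs, 877, 894 and 856 in ESC-ASCs, 91.0, 87.2 and 84.5 in EpiLCs, 55.2, 37.0 and 35.2 in AFSCs and 27.8, 24.1 and 30.2 in EpiSCs. ASC and ESC-ASC samples were at or above 692 and the primed samples at or below 55.2, with ESCs and EpiLCs apart in between. Pfkp was 1.93 ± 0.15 (adjusted p = 8.51e-09) in ASCs, 2.25 ± 0.15 (adjusted p = 5.03e-10) in ESC-ASCs and -2.75 ± 0.16 (adjusted p = 1.74e-11) in EpiSCs against ESCs, and 4.03 ± 0.17 (adjusted p = 3.27e-13) in ASCs against AFSCs. Its exons share 372 bases with Pitrm1 on the opposite strand, whose counts were 13.7 to 350% of those of Pfkp, and the counting did not use strand. Pfkl, the liver-type gene, had 151, 318 and 285 in ESCs, 661, 1032 and 989 in ASCs, 1087, 1040.1 and 1153 in ESC-ASCs, 466, 660.0 and 668 in EpiLCs, 252, 527 and 436 in AFSCs and 325, 447 and 357 in EpiSCs. ESC samples were low and overlapped only with replicate 1 of AFSCs, and replicate 1 was the lowest sample in ESCs, ASCs, EpiLCs and AFSCs. It was 2.10 ± 0.28 (adjusted p = 3.13e-06) in ESC-ASCs and 1.80 ± 0.28 (adjusted p = 3.21e-05) in ASCs against ESCs. Pfkm, the muscle-type gene, had 109, 149.6 and 159 in ESCs, 136, 192 and 168 in ASCs, 336, 324 and 332 in ESC-ASCs, 172, 166 and 181.7 in EpiLCs, 145, 255 and 213 in AFSCs and 114, 145 and 122 in EpiSCs. Only the ESC-ASC samples lay above all others, at 1.23 ± 0.18 (adjusted p = 1.32e-05) against ESCs and 1.01 ± 0.18 (adjusted p = 1.66e-04) against ASCs.

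The isomerase and aldolase steps rose in the ABCL cells as well. Gpi1 (glucose 6-phosphate isomerase) had 738, 1053 and 1003 in ESCs, 1202, 1803 and 1663 in ASCs, 2327, 2319 and 2360.0 in ESC-ASCs, 1319, 1227 and 1246 in EpiLCs, 528, 866 and 712 in AFSCs and 539, 568 and 558 in EpiSCs. ESC-ASC samples were above every other sample, and the gene was 1.31 ± 0.19 (adjusted p = 7.75e-06) there against ESCs and 1.12 ± 0.19 (adjusted p = 4.15e-05) in ASCs against AFSCs. Gpi1 shares 741 exonic bases with Gm26762 on the opposite strand, whose counts were 7.19 to 26.7% of its own. Aldoa, the main aldolase of most cells, had 3052, 3082 and 2739 in ESCs, 3623, 6550.0 and 6095 in ASCs, 7776, 7196 and 7851 in ESC-ASCs, 6434, 5171 and 5334 in EpiLCs, 1964, 2166 and 1594 in AFSCs and 2828, 2564 and 2830.4 in EpiSCs. Its ESC-ASC samples were highest and its AFSC samples lowest. The log2 fold change was 1.35 ± 0.19 (adjusted p = 6.49e-06) in ESC-ASCs against ESCs and 1.48 ± 0.19 (adjusted p = 2.08e-06) in ASCs against AFSCs. Aldoc, the brain-type aldolase, had 50.1, 69.6 and 58.8 in ESCs, 112, 225 and 186 in ASCs, 382, 331 and 404 in ESC-ASCs, 76.1, 62.4 and 70.5 in EpiLCs, 26.8, 40.8 and 31.7 in AFSCs and 22.9, 16.7 and 20.2 in EpiSCs. Levels were far below Aldoa, and the ESC-ASC and ASC samples did not overlap with any other group. It was 2.62 ± 0.21 (adjusted p = 5.37e-09) in ESC-ASCs and -1.61 ± 0.23 (adjusted p = 6.27e-06) in EpiSCs against ESCs. Tpi1 (triose phosphate isomerase) had 485, 1149 and 1059.6 in ESCs, 1340.0, 2227 and 1975 in ASCs, 2470.0, 2355 and 2502 in ESC-ASCs, 1665, 2061 and 2085 in EpiLCs, 293, 908 and 791 in AFSCs and 546, 769.9 and 584 in EpiSCs. Replicate 1 of ESCs and of AFSCs was far below the other 2 replicates. Tpi1 was 1.42 ± 0.34 (adjusted p = 0.00142) in ESC-ASCs against ESCs. In ASCs against ESCs it was 1.01 ± 0.34 (adjusted p = 0.0183), a call that was lost without ESC replicate 1 (edgeR adjusted p = 0.0811), without ASC replicate 2 (0.0684) and with no filter on low counts (0.0555).

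Of the 7 genes of lower glycolysis, 6 were higher in ESC-ASCs than in ESCs, where 30.6% of all genes were. In ASCs against ESCs 3 were higher and 1 lower, where 50.3% of all genes were called, 26.4% higher and 23.9% lower. Lower glycolysis yields ATP at 2 enzymes, phosphoglycerate kinase and pyruvate kinase. Pgk1, which encodes the former and lies on the X chromosome (106187100 to 106203699), had 1056, 2070.4 and 1859 in ESCs, 8672, 13011 and 11916 in ASCs, 14328, 13089.6 and 14502 in ESC-ASCs, 3182, 4106 and 4322 in EpiLCs, 966, 2674 and 2169 in AFSCs and 1863, 2397 and 1964 in EpiSCs. All ASC and ESC-ASC samples were at or above 8672 and all others at or below 4322, with no overlap between these 2 sets. The log2 fold change was 2.72 ± 0.31 (adjusted p = 1.04e-06) in ASCs, 3.05 ± 0.32 (adjusted p = 1.33e-07) in ESC-ASCs and 1.22 ± 0.30 (adjusted p = 0.00173) in EpiLCs against ESCs, and 2.50 ± 0.31 (adjusted p = 1.13e-06) in ASCs against AFSCs. Fragments that map to several places were counted at each, so its retrogene Pgk1-rs7 could share them: the copy had 8.26 to 28.8% of the counts of Pgk1. Pkm, the pyruvate kinase of these cells, had 3408, 8592 and 7926 in ESCs, 8181, 14203 and 13854 in ASCs, 16044, 14779.6 and 15953 in ESC-ASCs, 8913, 12288 and 12564 in EpiLCs, 3573, 9430.4 and 7913 in AFSCs and 6241, 9476 and 6867 in EpiSCs. ESC-ASC samples lay above all others and replicate 1 of ESCs was the lowest sample. Pkm was 1.21 ± 0.34 (adjusted p = 0.00523) in ESC-ASCs against ESCs. In ASCs the value was 0.83 ± 0.34 (adjusted p = 0.0494), and the call was lost without ESC replicate 1 (edgeR adjusted p = 0.207), ESC replicate 3 (0.0534), ASC replicate 2 (0.137) or ASC replicate 3 (0.132).

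The 3 enolase genes each had their own pattern. Eno1, the ubiquitous one, had 1792, 2516 and 2276 in ESCs, 3948, 6885 and 6414 in ASCs, 6665, 6251 and 6741 in ESC-ASCs, 6522, 5919.9 and 6293 in EpiLCs, 2082, 3349 and 2676 in AFSCs and 3897, 4110.4 and 4039 in EpiSCs. ESC samples were at the low end and overlapped with AFSCs, while EpiLC and ESC-ASC samples were at or above 5919.9. It was 1.36 ± 0.21 (adjusted p = 3.18e-05) in ASCs, 1.56 ± 0.21 (adjusted p = 3.70e-06) in ESC-ASCs and 1.51 ± 0.21 (adjusted p = 5.53e-06) in EpiLCs against ESCs, with counts of its copy Eno1b at 11.8 to 50.3% of its own. Eno2, the neuronal type, had 16.3, 10.9 and 8.77 in ESCs, 17.2, 15.01 and 12.6 in ASCs, 47.8, 59.3 and 47.7 in ESC-ASCs, 2.70, 3.01 and 2.50 in EpiLCs, 7.44, 7.38 and 5.72 in AFSCs and 2.51, 1.87 and 2.64 in EpiSCs. ESC-ASC samples were far above the next group, and EpiLC and EpiSC samples, which overlapped, were lowest. Against ESCs it was 2.13 ± 0.20 (adjusted p = 4.21e-08) in ESC-ASCs, -2.07 ± 0.26 (adjusted p = 1.60e-06) in EpiLCs and -2.33 ± 0.27 (adjusted p = 3.41e-07) in EpiSCs. Eno3, the muscle type, ran the other way with 34.0, 26.1 and 22.5 in ESCs, 25.4, 29.9 and 24.6 in ASCs, 33.7, 34.6 and 40.2 in ESC-ASCs, 87.0, 74.3 and 72.6 in EpiLCs, 152, 137 and 117 in AFSCs and 249.8, 257 and 260.2 in EpiSCs. EpiSC samples were highest, then AFSCs, then EpiLCs, with no overlap between these groups or with the naive and ABCL cells. The gene was 3.24 ± 0.17 (adjusted p = 3.89e-12) in EpiSCs and 2.33 ± 0.17 (adjusted p = 5.41e-10) in AFSCs against ESCs, and -2.36 ± 0.16 (adjusted p = 4.47e-10) in ASCs against AFSCs.

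Gapdh and Pgam1, both abundant, were not called at 2-fold in any of the 8 comparisons. Gapdh, which oxidises glyceraldehyde 3-phosphate and often serves as a reference gene, ran from 6133 to 27090.0 over the 18 samples. Of the 8 comparisons, 1 called it, at -0.59 ± 0.23 (adjusted p = 0.0381) in ASCs against ESCs. That call was lost without ASC replicate 1 (edgeR adjusted p = 0.127) and without ESC replicate 1 (0.0866), 2 (0.0836) or 3 (0.0517), and without the 4 libraries that stood apart the value was -0.24 (0.125). Outside the 8 comparisons Gapdh did pass the 2-fold rule, since EpiLCs exceeded ASCs by 1.12 ± 0.23 (edgeR adjusted p = 3.86e-04), and EpiLCs were also above ESC-ASCs by 0.95 ± 0.23 (0.00135). In ESC-ASCs, where Pgk1 of the next step was highest, Gapdh was at -0.42 ± 0.23 (adjusted p = 0.117) against ESCs. Pgam1 (phosphoglycerate mutase) ran from 2683 to 7599, and its largest change over the 8 comparisons was 0.72 ± 0.18 (adjusted p = 0.00163) in ASCs against AFSCs. Outside them, AFSCs differed from ESC-ASCs by -1.05 ± 0.18 (edgeR adjusted p = 3.51e-05).

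The 2 genes of fructose 2,6-bisphosphate, the strongest known activator of phosphofructokinase, moved apart. Pfkfb3, on chromosome 2 (11471433 to 11554077), whose enzyme mainly makes the activator, had 4.17, 7.54 and 6.05 in ESCs, 44.2, 46.3 and 57.4 in ASCs, 99.2, 103 and 107 in ESC-ASCs, 20.02, 46.6 and 37.8 in EpiLCs, 24.8, 22.4 and 20.8 in AFSCs and 15.1, 21.0 and 13.3 in EpiSCs. All ESC samples were below all other samples and ESC-ASC samples were above all others. It was higher than in ESCs in all 5 comparisons, from 1.43 ± 0.29 (adjusted p = 2.41e-04) in EpiSCs to 2.99 ± 0.28 (adjusted p = 7.23e-08) in ASCs and 4.06 ± 0.28 (adjusted p = 6.10e-10) in ESC-ASCs. Pfkfb4 had 14.9, 12.7 and 13.7 in ESCs, 8.19, 8.31 and 6.97 in ASCs, 4.67, 5.61 and 5.05 in ESC-ASCs, 4.03, 5.26 and 3.07 in EpiLCs, 6.63, 4.51 and 3.61 in AFSCs and 10.2, 7.23 and 11.6 in EpiSCs. ESC samples were above every other sample, and the gene was -1.43 ± 0.23 (adjusted p = 2.76e-05) in ESC-ASCs, -1.71 ± 0.25 (adjusted p = 1.17e-05) in EpiLCs and -1.49 ± 0.25 (adjusted p = 4.47e-05) in AFSCs against ESCs. It was the single listed gene lower in ESC-ASCs than in ESCs.

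Lactate dehydrogenase is a tetramer of A and B subunits, and the A form is known for reducing pyruvate and the B form for oxidising lactate. Ldha, on chromosome 7 (46841475 to 46855627), had 1072, 2059 and 1708 in ESCs, 4648, 7229 and 7110.0 in ASCs, 8013, 7389 and 8059 in ESC-ASCs, 4977, 5989 and 6291 in EpiLCs, 1149.7, 3009 and 2543 in AFSCs and 4045, 5132 and 4195 in EpiSCs. ESC and AFSC samples overlapped, and ASCs, ESC-ASCs, EpiLCs and EpiSCs lay above all of them. It was 1.95 ± 0.29 (adjusted p = 2.66e-05) in ASCs, 2.26 ± 0.30 (adjusted p = 2.73e-06) in ESC-ASCs, 1.84 ± 0.29 (adjusted p = 2.76e-05) in EpiLCs and 1.45 ± 0.29 (adjusted p = 2.39e-04) in EpiSCs against ESCs. The level in AFSCs gave 0.47 ± 0.29 (adjusted p = 0.163) against ESCs. Ldhb, on chromosome 6 (142490249 to 142507957), had 3022, 3629 and 3511 in ESCs, 526, 803 and 679 in ASCs, 4916, 4428 and 4832 in ESC-ASCs, 2028, 1597 and 1677 in EpiLCs, 693, 986 and 805 in AFSCs and 324, 336 and 341 in EpiSCs. ESC and ESC-ASC samples were at or above 3022, EpiLC samples came next, and ASC, AFSC and EpiSC samples were at or below 986. Here the 2 kinds of ABCL cells parted: ASCs differed from ESCs by -2.36 ± 0.17 (adjusted p = 2.51e-09), and ESC-ASCs exceeded ASCs by 2.83 ± 0.17 (adjusted p = 3.93e-10). ASCs differed from AFSCs by -0.33 ± 0.16 (adjusted p = 0.0756), and ESC-ASCs were above ESCs by 0.46 ± 0.16 (adjusted p = 0.0162), a call lost without ESC replicate 1 (edgeR adjusted p = 0.0697). EpiSCs were lowest, at -3.35 ± 0.17 (adjusted p = 4.20e-12) against ESCs.

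On the scale of levels per kb, the B gene held 68.3 ± 5.08% of the summed level of both subunit genes in ESCs (mean ± SD, n = 3). It held 37.7 ± 0.314% in ESC-ASCs, 28.8 ± 7.66% in AFSCs and 23.7 ± 4.56% in EpiLCs, with 9.63 ± 0.794% in ASCs and 7.03 ± 0.770% in EpiSCs. ESCs were thus the group where the B gene had the larger part, in all 3 samples. Slc2a3 held 66.8 ± 1.34% of the summed level of both glucose transporter genes in ESCs, 61.8 ± 4.49% in ASCs and 12.3 ± 1.53% in EpiLCs. Pfkp held 32.8 ± 5.94% of the 3 phosphofructokinase genes in ESCs and 40.5 ± 6.23% in ASCs, and 5.26 ± 1.17% in EpiSCs, where Pfkl held 70.7 ± 1.55%. These shares were not tested.

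Pyruvate enters the mitochondrion through a carrier of Mpc1 and Mpc2 and is oxidised by pyruvate dehydrogenase, whose E1 subunits are Pdha1 and Pdhb. In ASCs against ESCs 1 of the 4 genes, Pdhb, was lower and 3 were not called, where 50.3% of all genes were called. That Pdhb call was lost without ASC replicate 1 (edgeR adjusted p = 0.120) or 3 (0.0540) and without ESC replicate 2 (0.122) or 3 (0.110). It was also lost with no filter on low counts (0.0628). In ESC-ASCs against ESCs 1 of the 4 genes was higher and 3 were not called, where 60.1% of all genes were called. Pdha1 had 675, 701 and 760.0 in ESCs, 690.0, 756 and 798 in ASCs, 907, 822 and 851 in ESC-ASCs, 494, 428 and 444 in EpiLCs, 339, 346 and 311 in AFSCs and 328, 311 and 316 in EpiSCs. AFSC and EpiSC samples were at or below 346 and the ESC, ASC and ESC-ASC samples at or above 675. It was -1.10 ± 0.11 (adjusted p = 5.76e-08) in AFSCs and -1.17 ± 0.11 (adjusted p = 2.03e-08) in EpiSCs against ESCs, and 1.15 ± 0.11 (adjusted p = 4.17e-08) in ASCs against AFSCs. Its smaller difference between ESC-ASCs and ESCs (0.26 ± 0.11, adjusted p = 0.0469) was lost without ESC replicate 1 (edgeR adjusted p = 0.136) or 2 (0.102) or ESC-ASC replicate 1 (0.124) or 3 (0.0686). It shares 603 exonic bases with Map3k15 on the opposite strand, which had 30.3 to 73.8% of its counts. Mpc1 had 76.6, 71.0 and 75.5 in ESCs, 55.5, 73.3 and 66.4 in ASCs, 72.6, 76.5 and 81.1 in ESC-ASCs, 42.2, 22.1 and 23.6 in EpiLCs, 51.1, 45.0 and 43.3 in AFSCs and 49.8, 35.1 and 44.9 in EpiSCs. EpiLCs held the 2 lowest samples and overlapped with EpiSCs, and the gene was -1.35 ± 0.21 (adjusted p = 1.74e-05) there, -0.80 ± 0.20 (adjusted p = 0.00191) in EpiSCs and -0.68 ± 0.20 (adjusted p = 0.00693) in AFSCs against ESCs. It shares 327 bases with 4930506C21Rik on the opposite strand, whose counts were 49.4 to 84.0% of its own. Mpc2 ran from 10.7 to 23.2, with log2 fold changes between -0.39 and 0.28 over the 8 comparisons. A test for any difference among the 6 groups called 31 of the 32 genes and left Mpc2 out (edgeR adjusted p = 0.189). The share of all genes called by that test was not computed, so 31 of 32 is no result about the list. Pdhb ran from 492 to 1154, and its largest change over the 8 comparisons was -0.76 ± 0.17 (adjusted p = 6.40e-04) in EpiSCs against ESCs.

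The pyruvate dehydrogenase kinases, which phosphorylate and switch off the complex, held the largest increase of the list from ESCs to ESC-ASCs. Pdk1, on chromosome 2 (71873224 to 71903858), had 7.34, 9.13 and 6.45 in ESCs, 161, 186 and 181 in ASCs, 332, 334 and 341 in ESC-ASCs, 185, 218 and 231 in EpiLCs, 22.5, 29.3 and 27.4 in AFSCs and 9.28, 10.8 and 12.5 in EpiSCs. ASC, ESC-ASC and EpiLC samples were at or above 161 and the ESC and EpiSC samples at or below 12.5, with AFSCs apart in between. It was 5.43 ± 0.17 (adjusted p = 6.29e-14) in ESC-ASCs, 4.79 ± 0.17 (adjusted p = 5.35e-14) in EpiLCs and 4.50 ± 0.17 (adjusted p = 9.73e-13) in ASCs against ESCs, 1.79 ± 0.17 (adjusted p = 2.11e-08) in AFSCs, and 2.71 ± 0.15 (adjusted p = 1.74e-11) in ASCs against AFSCs. Pdk1 made up 7.63 ± 1.27% of the summed level of the 4 kinase genes in ESCs, 48.9 ± 0.993% in ASCs, 58.4 ± 0.652% in ESC-ASCs and 66.2 ± 1.22% in EpiLCs, a description with no test.

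Pdk4, the kinase known for rising on fasting in muscle and liver, had 11.8, 12.3 and 10.8 in ESCs, 21.5, 22.2 and 19.1 in ASCs, 76.2, 76.1 and 78.0 in ESC-ASCs, 2.63, 2.27 and 3.96 in EpiLCs, 0 in all 3 AFSC samples and 1.12, 1.26 and 1.09 in EpiSCs. ESC-ASC samples were highest, then ASCs, ESCs, EpiLCs and EpiSCs, without overlap. AFSC libraries held 0 counts, so only a bound can be given with a floor of 3 counts per library: ESCs were at least 11.5-fold and ASCs at least 20.7-fold higher than AFSCs. It was 2.71 ± 0.17 (adjusted p = 8.93e-10) in ESC-ASCs and -3.30 ± 0.27 (adjusted p = 9.63e-09) in EpiSCs against ESCs, the latter from libraries with 3 to 5 counts. Pdk3 had 63.0, 70.9 and 76.7 in ESCs, 146, 157 and 166 in ASCs, 145, 136 and 144 in ESC-ASCs, 81.7, 108 and 106 in EpiLCs, 42.6, 77.7 and 68.4 in AFSCs and 52.3, 71.9 and 59.3 in EpiSCs. ASC and ESC-ASC samples were above all others, at 1.13 ± 0.18 (adjusted p = 5.94e-05) and 0.99 ± 0.18 (adjusted p = 1.12e-04) against ESCs and 1.28 ± 0.18 (adjusted p = 6.90e-06) in ASCs against AFSCs. Pdk2 had 10.6, 12.1 and 9.52 in ESCs, 5.12, 5.58 and 7.63 in ASCs, 20.9, 19.6 and 20.2 in ESC-ASCs, 4.75, 5.59 and 10.8 in EpiLCs, 4.26, 7.69 and 7.21 in AFSCs and 9.13, 12.0 and 8.45 in EpiSCs. ESC-ASC samples were above every other sample, at 0.89 ± 0.26 (adjusted p = 0.0059) against ESCs and 1.73 ± 0.27 (adjusted p = 3.60e-05) against ASCs. All 4 kinases were thus higher in ESC-ASCs than in ESCs, where 30.6% of all genes were.

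ASCs against AFSCs and ESC-ASCs against ESCs each set cells in ABCL beside the kind of cell they were derived or converted from, though the labels do not say that the same line was used, and they share no sample. In both, 21 of the 32 genes were higher, as were 11.4% of the 16901 genes tested. Pfkfb4 was higher in the former and lower in the latter, Eno3 lower in the former and higher in the latter, and 4 genes were higher in the latter and not called in the former. Hk1 was higher in ASCs than in AFSCs (2.17 ± 0.16, adjusted p = 1.17e-09) and not called in ESC-ASCs against ESCs, from start levels of 16.9 ± 2.84 in AFSCs and 161 ± 29.6 in ESCs (mean ± SD, n = 3). The Pfkfb4 call in ASCs against AFSCs (0.66 ± 0.26, adjusted p = 0.0325) was lost without ASC replicate 1 (edgeR adjusted p = 0.0699) or 2 (0.0758) and without AFSC replicate 2 (0.0853) or 3 (0.156). The Eno3 call in ESC-ASCs against ESCs (0.41 ± 0.17, adjusted p = 0.0451) was lost without ESC replicate 2 (0.112) or 3 (0.231) or ESC-ASC replicate 3 (0.135). The difference between the 2 comparisons was not tested for any gene. The plot of one comparison against the other shows most genes in the upper right.

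**Figure D3:**
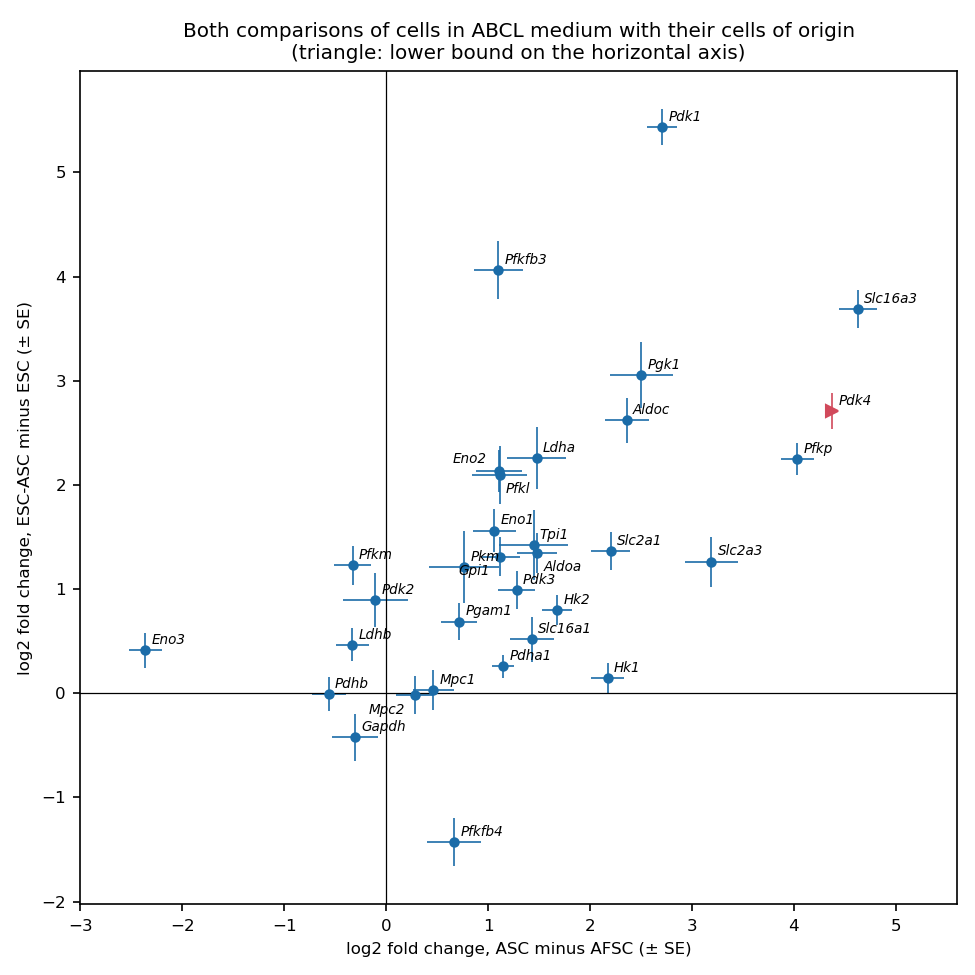
Log2 fold change of the 32 genes in ASCs against AFSCs (horizontal) and in ESC-ASCs against ESCs (vertical), with bars of 1 SE. For Pdk4, with 0 counts in AFSCs, a triangle marks the bound of 4.37. Pdk1, Slc16a3, Pgk1 and Pfkp lie far to the upper right, and Eno3 alone is 2-fold lower in the former.

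ESC-ASCs and ASCs, both kept in ABCL, differed at 18 of the 32 genes, where 50.7% of all genes were called. Without ASC replicate 1 the number was 12, with 10 higher and 2 lower, where 7600 of 16788 genes were called. Higher in ESC-ASCs at 2-fold or more were Ldhb (2.83 ± 0.17, adjusted p = 3.93e-10), Pdk4 (1.88 ± 0.16, adjusted p = 5.87e-08), Eno2 (1.80 ± 0.19, adjusted p = 4.40e-07), Pdk2 (1.73 ± 0.27, adjusted p = 3.60e-05), Hk1 (1.22 ± 0.15, adjusted p = 2.10e-06), Aldoc (1.10 ± 0.20, adjusted p = 1.38e-04), Pfkfb3 (1.07 ± 0.23, adjusted p = 6.99e-04) and Pfkm (1.01 ± 0.18, adjusted p = 1.66e-04). Slc16a1 was the gene lower at 2-fold. These 9 genes became 5 when ASC replicate 1 was left out (3697 of 16788 genes), and 5 when the 4 libraries that stood apart were left out (3849 of 16607 genes). No listed gene was lower at 2-fold in either of these fits, nor without ESC-ASC replicate 1 or 3. For Slc16a1, ASC replicate 1 had a level of 626 and the other 2 ASC replicates 352 each. Of the 4 carriers, 3 were lower in ESC-ASCs and 1 was not called, where 27.7% of all genes were lower. The Slc2a1 call among them (-0.50 ± 0.18, adjusted p = 0.0263) was lost without ASC replicate 1 (edgeR adjusted p = 0.109) and without ESC-ASC replicate 1 (0.109) or 3 (0.0959). Sequencing depth also differed, with at least 17813619 counts in each ESC-ASC sample. Thinning them to the depth of the other groups left 18 genes called, where 7975 of 16514 genes were called. In ESC-ASCs against ESCs the same thinning left 24 of the 32 genes called, 23 higher and 1 lower, where 9616 of 16514 genes were called. The calls lost there were Pdha1 (edgeR adjusted p = 0.0527), Slc16a1 (0.0563) and Eno3 (0.0634).

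Pgk1, Pdha1 and Pdk3 are X-linked, and the X chromosome as a whole moved in some comparisons. Of 641 X-linked genes tested, 70.05% were higher in ASCs than in ESCs, with a median log2 fold change of 1.03, beside -0.00418 for autosomal genes. The X median was 0.85 in ASCs against AFSCs and 0.85 against EpiSCs, -0.91 in ESC-ASCs against ASCs and 0.05 in ESC-ASCs against ESCs. Pdk3, at 1.13 ± 0.18 (adjusted p = 5.94e-05) in ASCs against ESCs and 1.28 ± 0.18 (adjusted p = 6.90e-06) against AFSCs, lay somewhat above these medians. In ESC-ASCs against ESCs, where the X median was near 0, Pgk1 was at 3.05 ± 0.32 (adjusted p = 1.33e-07) and Pdk3 at 0.99 ± 0.18 (adjusted p = 1.12e-04). The part of the X chromosome in the changes of these genes was not tested. Pdha1 had 0.05 ± 0.11 (adjusted p = 0.73) in ASCs against ESCs, below the X median. The plot of the 3 genes beside the X medians shows Pgk1 above the median of X-linked genes in all 8 comparisons.

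**Figure D4:**
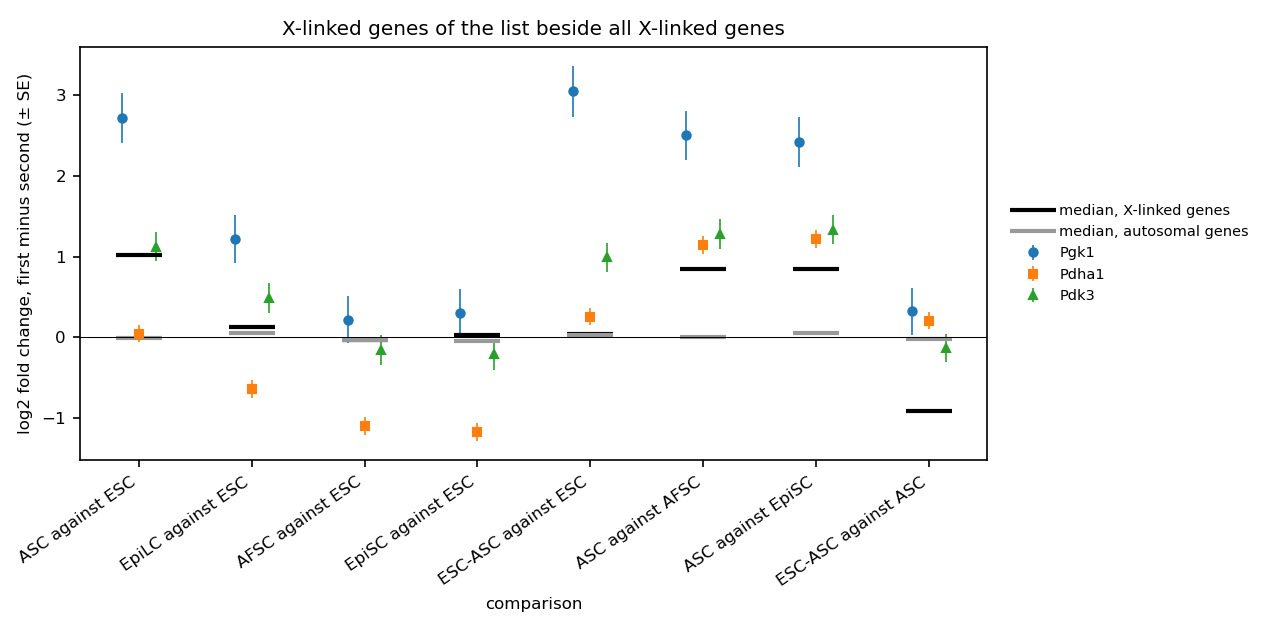
Log2 fold change (± SE) of Pgk1, Pdha1 and Pdk3 in each of the 8 comparisons, with short horizontal lines at the median of X-linked (black) and of autosomal (grey) genes tested. The X median is 1.03 in ASCs against ESCs and -0.91 in ESC-ASCs against ASCs, and Pgk1 is 3.05 in ESC-ASCs against ESCs, where the X median is 0.05.

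The HIF pathway list holds 25 genes outside glycolysis, among them the HIF subunits, the enzymes that mark HIF for destruction and further known targets, and all 25 were tested. In ESC-ASCs against ESCs 17 were higher and 4 lower, with a median log2 fold change of 1.78 beside 0.03 over all genes, and in ASCs against ESCs 14 were higher and 5 lower, with a median of 1.17 beside 0.02. In EpiLCs 13 were higher and 7 lower (median 0.39), in AFSCs 9 and 9 (median -0.18) and in EpiSCs 10 and 9 (median -0.27). ASCs had 17 higher and 1 lower than AFSCs (median 1.13) and 18 higher and 1 lower than EpiSCs (median 1.47), and ESC-ASCs had 12 higher and 2 lower than ASCs (median 0.43). All genes called were 60.1% for ESC-ASCs against ESCs, 50.3% for ASCs, 55.3% for EpiLCs, 60.5% for AFSCs and 61.2% for EpiSCs, and 64.0%, 66.5% and 50.7% in the last 3 comparisons, and these shares are also the background of the lists that follow. The genes with the largest called changes, at most 4 a list, were Epas1, Adm, Bnip3 and P4ha2.

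Bnip3, a mitochondrial protein that promotes mitophagy, had levels of 67.8, 75.5 and 73.9 in ESCs, 715, 911 and 844 in ASCs, 1656, 1566 and 1718 in ESC-ASCs, 647, 662 and 685 in EpiLCs, 82.0, 87.4 and 74.1 in AFSCs and 135, 126 and 129 in EpiSCs. Its groups formed the same high set as Pdk1, with ASC, ESC-ASC and EpiLC samples apart from the rest, at 4.49 ± 0.13 (adjusted p = 1.53e-14) in ESC-ASCs against ESCs. P4ha2, a collagen prolyl hydroxylase, had 3.16, 2.80 and 3.58 in ESCs, 90.6, 70.2 and 52.2 in ASCs, 39.2, 52.2 and 37.6 in ESC-ASCs, 25.2, 31.2 and 24.5 in EpiLCs, 14.9, 15.8 and 18.3 in AFSCs and 6.52, 10.03 and 7.50 in EpiSCs. All ESC samples were below all others, and ASCs were at 4.45 ± 0.26 (adjusted p = 2.36e-10). Adm, the peptide adrenomedullin, had 0, 2.16 and 2.07 in ESCs, 14.7, 14.1 and 11.5 in ASCs, 138, 162 and 148 in ESC-ASCs, 37.8, 63.4 and 38.3 in EpiLCs, 4.99, 5.01 and 5.12 in AFSCs and 1.62, 7.08 and 4.72 in EpiSCs. ESC-ASC samples were far above all others, at 6.45 ± 0.39 (adjusted p = 1.36e-10) against an ESC level that rests on few counts. Epas1, which encodes HIF-2 alpha, ran the other way, with 61.6, 91.2 and 85.1 in ESCs, 51.8, 47.5 and 55.2 in ASCs, 58.9, 53.7 and 61.5 in ESC-ASCs, 14.8, 21.2 and 18.1 in EpiLCs, 10.7, 8.72 and 9.95 in AFSCs and 1.48, 0.498 and 0.360 in EpiSCs. It was lowest in EpiSCs, at -6.78 ± 0.29 (adjusted p = 3.46e-13) against ESCs. Hif1a, which encodes HIF-1 alpha and is known to be controlled mainly at the protein level, was 0.54 ± 0.17 (adjusted p = 0.0117) in ESC-ASCs and 0.36 ± 0.18 (adjusted p = 0.0994) in ASCs against ESCs. The part of HIF in the changes of the glycolytic genes was not tested.

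**Figure D5:**
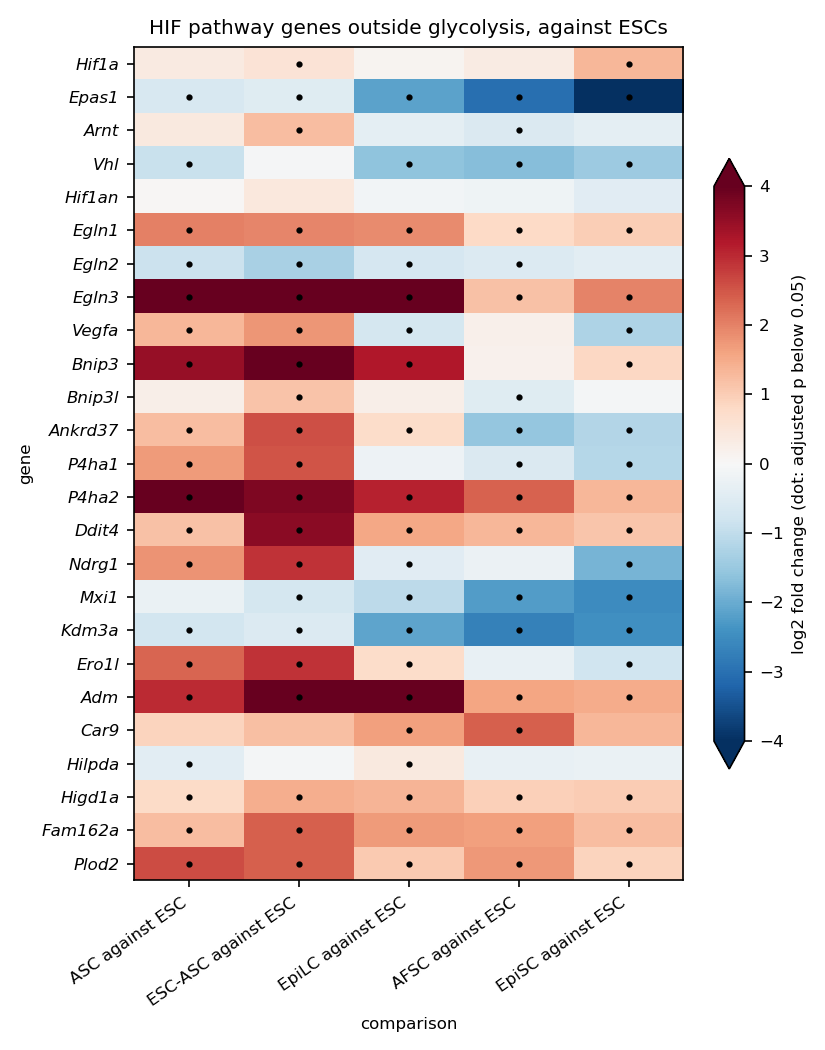
Log2 fold change of the 25 HIF pathway genes outside glycolysis in the 5 comparisons with ESCs, which share the ESC samples. A dot marks an edgeR adjusted p below 0.05, and Egln3, Bnip3, P4ha2 and Adm are higher and called in ASCs, ESC-ASCs and EpiLCs.

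Of 29 other isozymes and family members of the pathway, 22 passed the filter on low counts. Of these 13 were higher and 2 lower in ESC-ASCs than in ESCs (median 0.87), 10 and 3 in ASCs (median 0.51), 10 and 5 in EpiLCs (median 0.58), 8 and 5 in AFSCs (median 0.11) and 8 and 5 in EpiSCs (median -0.01). ASCs had 11 higher and 5 lower than AFSCs and 12 and 6 than EpiSCs, and ESC-ASCs 11 and 4 than ASCs. The 13 of 22 called in AFSCs and in EpiSCs lay near the background of 60.5% and 61.2%. Genes with large changes were Ldhc, Hkdc1 and Pklr. Ldhc, the testis-type lactate dehydrogenase, had 13.7, 16.9 and 12.7 in ESCs, 23.9, 25.0 and 22.9 in ASCs, 46.7, 37.1 and 51.2 in ESC-ASCs, 21.2, 21.3 and 20.3 in EpiLCs, 5.11, 20.5 and 10.5 in AFSCs and 0 in all 3 EpiSC samples. ASCs were at least 12.0-fold above EpiSCs, whose libraries held 0 counts. Pklr (liver-type pyruvate kinase) stayed at or below 4.75 and Hkdc1 at or below 3.35 in every sample. For Hkdc1, with 0 counts in AFSCs, no fold is given.

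The rest of the pyruvate dehydrogenase complex and of the pyruvate branch did not move as 1 block. Of 14 tested genes of 15, 6 were higher and 2 lower in ASCs than in ESCs (median 0.52), 6 and 3 in ESC-ASCs (median 0.26), 6 and 2 in EpiLCs (median 0.01), 5 and 4 in AFSCs (median 0.04) and 3 and 7 in EpiSCs (median -0.37), with 5 and 5 in ASCs against AFSCs, 7 and 2 against EpiSCs and 3 and 3 in ESC-ASCs against ASCs. With 8 to 9 calls of 14 in each comparison with ESCs but that of EpiSCs, the list was near the background of 50.3 to 60.5%. Pdp2 encodes a phosphatase that switches the complex back on, the counterpart of the kinases. It had 138, 136 and 136 in ESCs, 77.5, 54.9 and 55.9 in ASCs, 51.7, 55.1 and 54.9 in ESC-ASCs, 43.4, 39.9 and 38.0 in EpiLCs, 26.5, 23.2 and 24.9 in AFSCs and 33.9, 31.1 and 23.5 in EpiSCs. ESC samples were above all others with no overlap, and the gene was -1.35 ± 0.14 (adjusted p = 1.69e-07) in ESC-ASCs, -1.14 ± 0.14 (adjusted p = 3.40e-06) in ASCs and -2.45 ± 0.15 (adjusted p = 7.49e-11) in AFSCs against ESCs. Pcx (pyruvate carboxylase, which makes oxaloacetate) had 31.3, 51.2 and 51.4 in ESCs, 113, 108 and 95.0 in ASCs, 70.8, 75.5 and 72.3 in ESC-ASCs, 27.3, 40.8 and 37.6 in EpiLCs, 50.1, 53.1 and 71.3 in AFSCs and 29.2, 33.6 and 26.8 in EpiSCs, and it was 1.20 ± 0.19 (adjusted p = 4.64e-05) in ASCs against ESCs, with all ASC samples above every other sample. Pdha2, the testis-type E1 subunit, had 4.19, 2.97 and 6.17 in ESCs, 20.2, 26.9 and 23.3 in ASCs, 4.08, 2.91 and 5.34 in ESC-ASCs, 4.42, 4.14 and 4.55 in EpiLCs, 0, 0.984 and 0 in AFSCs and 0 in all 3 EpiSC samples. ASC samples were the highest, at 2.35 ± 0.36 (adjusted p = 4.31e-05) against ESCs and at least 17.5-fold above EpiSCs, whose libraries held 0 counts. Me3, a malic enzyme, stayed at or below 1.93 in all samples.

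The pentose phosphate pathway, which branches off at glucose 6-phosphate and makes NADPH and ribose, had 3 calls in each kind of ABCL cells against ESCs. Of 8 tested genes of 9, 3 were lower and 5 not called in ASCs against ESCs (median -0.12) and 1 was higher and 2 lower in ESC-ASCs (median -0.15). In EpiLCs 4 were higher and 2 lower (median 0.24), in AFSCs 1 and 5 (median -0.62) and in EpiSCs 2 and 4 (median -0.72), with 3 and 1 in ASCs against AFSCs, 3 and 2 against EpiSCs and 1 and 2 in ESC-ASCs against ASCs. The 3 of 8 called in each kind of ABCL cells against ESCs were below the background of 50.3% and 60.1%. Rpia (ribose 5-phosphate isomerase) had 50.7, 45.0 and 42.5 in ESCs, 17.9, 17.8 and 19.4 in ASCs, 16.1, 17.9 and 17.6 in ESC-ASCs, 21.3, 20.6 and 21.8 in EpiLCs, 16.6, 17.7 and 11.4 in AFSCs and 14.7, 16.4 and 19.6 in EpiSCs. All ESC samples were above all others, with -1.34 ± 0.16 (adjusted p = 2.27e-06) in ASCs and -1.43 ± 0.16 (adjusted p = 3.32e-07) in ESC-ASCs. Pgd, the second dehydrogenase of the branch, had 331, 492 and 486 in ESCs, 194, 242 and 244 in ASCs, 175, 162 and 164 in ESC-ASCs, 326, 333 and 339 in EpiLCs, 156, 259 and 236 in AFSCs and 185, 217 and 178 in EpiSCs, and it was -1.40 ± 0.18 (adjusted p = 1.82e-06) in ESC-ASCs against ESCs, with no overlap between these groups. Pgls, which opens the lactone of the branch, had 74.2, 72.5 and 63.9 in ESCs, 53.2, 89.0 and 81.8 in ASCs, 69.1, 68.0 and 73.9 in ESC-ASCs, 209, 167 and 174 in EpiLCs, 229.7, 223 and 190.2 in AFSCs and 269, 204 and 243 in EpiSCs. EpiLC, AFSC and EpiSC samples were above all others, at 1.76 ± 0.16 (adjusted p = 1.88e-08) in EpiSCs against ESCs. H6pd, which starts a like branch in the endoplasmic reticulum, had 31.6, 30.2 and 29.0 in ESCs, 41.0, 31.3 and 32.7 in ASCs, 20.9, 30.8 and 23.3 in ESC-ASCs, 48.3, 62.7 and 53.8 in EpiLCs, 17.7, 12.2 and 23.1 in AFSCs and 10.5, 10.6 and 13.3 in EpiSCs. EpiLC samples were above all others and EpiSC samples were low, overlapping only with AFSCs. It was -1.40 ± 0.22 (adjusted p = 1.83e-05) in EpiSCs and 0.87 ± 0.20 (adjusted p = 0.00121) in EpiLCs against ESCs.

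The order of the group means shows which neighbours could be told apart. For Slc16a3 the order was EpiLCs, ASCs, ESC-ASCs, EpiSCs, ESCs and AFSCs, and each step passed the test but the last (edgeR adjusted p = 0.594). For Hk1 it was ESC-ASCs, ESCs, ASCs, EpiLCs, AFSCs and EpiSCs, and each step passed but the first (0.393). For Pfkp the order was ESC-ASCs, ASCs, ESCs, EpiLCs, AFSCs and EpiSCs, and the step from ESC-ASCs to ASCs (0.0731) was not called. For Pgk1 the steps between ESC-ASCs and ASCs (0.364), EpiSCs and AFSCs (0.864) and AFSCs and ESCs (0.533) were not called. For Ldhb the order was ESC-ASCs, ESCs, EpiLCs, AFSCs, ASCs and EpiSCs, and the step from AFSCs to ASCs (0.0756) was not called. For Pdk1 it was ESC-ASCs, EpiLCs, ASCs, AFSCs, EpiSCs and ESCs, and the step from EpiLCs to ASCs (0.0663) was not called. For Slc2a1 the steps from ASCs to EpiLCs (0.149), EpiLCs to ESC-ASCs (0.351) and ESCs to AFSCs (0.12) were not called.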

How the data were processed

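Polyadenylated RNA of 18 samples in 6 groups was sequenced with a directional kit. The authors aligned fragments with TopHat2 to GRCm38 and made the deposited raw counts per gene with featureCounts 1.5.0-p1 and Ensembl 86, without using strand and with fragments of several places counted at each. File names and labels disagree for ASCs and AFSCs, and the labels were followed.

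Totals and gene counts were taken as deposited, and 35514 of 35773 genes had a symbol. Levels are counts scaled by the size factors of DESeq2 1.42.0 and by exonic length in kb. Tests used the quasi-likelihood F-test of edgeR 4.0.16 in R 4.3.3, with TMM factors, robust fitting, all 18 samples in 1 fit with a term per group, 16901 genes with a count of 10 or more in 3 or more samples, and Benjamini-Hochberg adjustment within each of 8 comparisons. On simulated data (ASCs against ESCs, 16274 genes) 89% of genes changed by 1 on the log2 scale and 100% of those changed by 2 were recovered, with 6.44% of calls false. The simulation changed 100 genes by each amount, all with counts well above the filter. It gave every gene the same dispersion and had no replicate standing apart. These rates therefore do not carry over to genes with few counts or to the libraries that stood apart.

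Per-sample values and folds are given for genes called at 2-fold in any comparison, and for at most 4 genes of each further list by size of change (the highest level alone for Pklr, Hkdc1 and Me3, which had few counts), with Hif1a added after its values were seen. A further gene that this rule names is not reported here. The genes and lists were chosen with earlier results of these data known. Alternatives were size factors by RLE, TMM without X-linked genes, DESeq2, other filters, fits of 6 samples, thinned ESC-ASCs, a replicate block and each replicate left out. A fit without the 4 libraries that stood apart was added after the data were seen. Counts limit precision by sampling, and floors of 3 counts cover counting error only.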

Additional observations from a re-analysis of the deposited data

How the results depend on the processing

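Calls and fold changes were recomputed in 27 alternative settings. No called log2 fold change of the 32 genes was called with the opposite sign, and 29 of 181 calls were lost in at least 1 setting. With at least 10 counts required in every sample compared, all genes called numbered 5619 in ASCs against ESCs, 6495 in AFSCs against ESCs and 6580 in EpiSCs against ESCs, against 8503, 10229 and 10345, since fewer genes were tested. Listed genes called at 2-fold in ESC-ASCs against ASCs fell from 9 to 5 without the 4 libraries that stood apart, where all genes went from 24.5% to 23.2%. The cause was not tested.

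Over the settings that left out 1 replicate, listed genes called ranged from 21 to 22 in ASCs against ESCs, 22 to 25 in EpiLCs, 16 to 18 in AFSCs, 18 to 21 in EpiSCs and 24 to 26 in ESC-ASCs against ESCs, 24 to 28 in ASCs against AFSCs, 21 to 26 in ASCs against EpiSCs and 12 to 17 in ESC-ASCs against ASCs. Those called at 2-fold ranged in the same order from 15 to 17, 16 to 18, 11 to 12, 13 to 14, 18 to 21, 19 to 23, 19 to 20 and 5 to 9, the lowest without ASC replicate 1. All genes called ranged from 7341 to 7813, 8234 to 9367, 9347 to 10140, 9304 to 10393, 9073 to 9596, 10006 to 10465, 10129 to 10726 and 7129 to 7763.

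Replicate numbers were not used as pairs in the main fit. Same-numbered samples of different groups had deviations with a mean correlation of 0.0794 (-0.200 to 0.453), and 19 of 45 pairs were over 0.1. For different-numbered samples the mean was -0.0376 (-0.380 to 0.320), and 20 of 90 pairs were over 0.1. Of 18 samples, 8 correlated best with their own number. Whether equal numbers mark a shared batch was not tested. With the replicate block, listed genes called were 24, 26, 19, 21, 27, 27, 27 and 18 in the same order, with 0 calls lost and 8 gained, and all genes called were 8962, 9722, 10573, 10687, 10573, 11193, 11644 and 9117. Depth limits the genes with few counts, such as Pdk4 in EpiSCs.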

Other observations

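Regulators tied to glycolysis in pluripotent cells formed a further list of 15 genes, of which 14 were tested. In ASCs against ESCs 7 were higher and 3 lower, in ESC-ASCs 7 and 6, in EpiLCs 5 and 6, in AFSCs 5 and 7 and in EpiSCs 7 and 4. ASCs had 6 higher and 4 lower than AFSCs and 5 and 5 than EpiSCs, and ESC-ASCs had 5 higher and 6 lower than ASCs. All genes called were 50.3%, 60.1%, 55.3%, 60.5%, 61.2%, 64.0%, 66.5% and 50.7% in the same order. Myc, a transcription factor known to drive glycolytic genes, had levels of 8.54, 10.1 and 7.26 in ESCs, 37.8, 58.5 and 65.4 in ASCs, 7.13, 3.35 and 4.36 in ESC-ASCs, 234, 208 and 210.0 in EpiLCs, 218, 261 and 203 in AFSCs and 127, 103 and 129 in EpiSCs. EpiLC and AFSC samples were highest and EpiSC samples next, while ESC and ESC-ASC samples were at the bottom. The log2 fold change was 2.61 ± 0.26 (adjusted p = 1.57e-07) in ASCs and -0.82 ± 0.31 (adjusted p = 0.0271) in ESC-ASCs against ESCs (edgeR). ESC-ASCs against ASCs gave -3.43 ± 0.24 (adjusted p = 2.30e-09).

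Lin28a and Lin28b encode RNA-binding proteins that block let-7 processing. Lin28a had 71.9, 110.1 and 98.0 in ESCs, 311, 332 and 399 in ASCs, 809, 703 and 798 in ESC-ASCs, 1123, 1008 and 1026 in EpiLCs, 624, 841 and 808 in AFSCs and 843, 881 and 849.7 in EpiSCs. All ESC samples were below all others, at 1.86 ± 0.16 (adjusted p = 3.50e-08) in ASCs and 3.49 ± 0.17 (adjusted p = 3.53e-12) in EpiLCs against ESCs. Lin28b had 0.729, 0.862 and 1.03 in ESCs, 34.2, 14.99 and 11.2 in ASCs, 24.4, 23.0 and 27.6 in ESC-ASCs, 60.7, 67.3 and 59.4 in EpiLCs, 78.8, 48.6 and 75.4 in AFSCs and 83.8, 80.3 and 79.0 in EpiSCs. ESC samples were again below all others, with 4.43 ± 0.46 (adjusted p = 3.31e-07) in ASCs and 6.45 ± 0.42 (adjusted p = 1.18e-10) in EpiSCs. Esrrb, a nuclear receptor of naive cells, had 596, 802 and 806 in ESCs, 631, 747 and 813 in ASCs, 1057, 976 and 1087 in ESC-ASCs, 8.22, 14.8 and 11.5 in EpiLCs, 0.668, 2.68 and 2.74 in AFSCs and 1.30, 0.583 and 0.947 in EpiSCs. EpiLC, AFSC and EpiSC samples were far below the others, with -9.65 ± 0.34 (adjusted p = 2.14e-14) in EpiSCs against ESCs and -0.03 ± 0.20 (adjusted p = 0.906) in ASCs.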
